A study of Mus musculus with 30 samples.

Results

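The 7 genes described here encode the 2 enzymes that regenerate active glucocorticoid inside a cell, Hsd11b1 and H6pd, and 5 proteins that fold the glucocorticoid receptor and hold it ready for hormone, Fkbp4, Hsp90aa1, Hsp90ab1, Ptges3 and Stip1. They were picked by name from the 23109 genes in the RNA tables, and each of the 7 had a row in all 8 libraries. The cells were brown preadipocytes grown from interscapular brown fat, taken from newborn pups of strain C57BL/6J with floxed alleles of the receptor gene, Nr3c1 (GRf/f), and immortalized with SV40T. Infection with a retrovirus named Vec gave the line that the labels call wild type (Vec), and infection with Cre retrovirus gave the receptor knockout line (Cre). Both lines therefore derive from cells with the floxed alleles and T antigen. The labels do not say how many pups or infections stand behind each line. RNA came from confluent cells, plated 4 days earlier, at D0, when induction began, and then at 4 hours (4h), day 2 (D2) and day 7 (D7). The labels give the inducing mix as 2 µg/ml dexamethasone, a synthetic glucocorticoid, with 0.5 mM IBMX, 0.02 µM insulin, 1 nM T3 and 0.125 mM indomethacin, and give its duration as 4 hours; the media of later days are not described in the labels. The question, as the study's title puts it, was how far adipogenesis needs the receptor.

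Each of the 8 combinations of line and time held 1 library, so no value below has a replicate. Depth ran from 7.7 M reads (Cre 4h) to 28.9 M reads (Vec D2). Nr3c1 read 24.3, 12.9, 21.3 and 32.1 RPKM (reads per kilobase of transcript, scaled to library size) in Vec at D0, 4h, D2 and D7, and 4.81, 4.04, 8.07 and 6.67 in Cre, which was lower at every time. The 6 preadipocyte and fibroblast markers examined all reached 1 RPKM, and summed to between 395 and 2158 RPKM per library. The 8 general adipocyte markers summed to 51.1 to 95.8 RPKM at D0 and 4h and to 1758 to 4856 RPKM at D2 and D7. The 8 brown adipocyte markers summed to 16.0 to 30.5 RPKM up to D2 and to 81.2 in Vec D7 and 59.1 in Cre D7, with Cox8b, a cytochrome oxidase subunit, at 49.7 and 41.2 there; Ucp1, the uncoupling protein of brown fat, did not exceed 0.882 RPKM in any library. Macrophage markers summed to at most 1.55 RPKM (4 of 5 with a row), endothelial markers to at most 3.12 and skeletal muscle markers to at most 25.3. Intervals beside RPKM values are 95% exact Poisson intervals, and those beside ratios are exact conditional binomial (Clopper-Pearson) intervals; both cover counting error only.

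Glucocorticoids circulate in an active form and in an inert keto form. Hsd11b1, a reductase in the lumen of the endoplasmic reticulum, turns the inert form back into the active one, and H6pd supplies the NADPH it consumes by oxidizing hexose 6-phosphate in the same compartment. Hsd11b2 runs the opposite reaction. Adipose tissue is known for its Hsd11b1 activity; dexamethasone is active as added. The receptor reaches its hormone-binding shape through a relay: Hsp70 binds it first, Stip1 (Hop) bridges Hsp70 and Hsp90, the Hsp90 dimer takes the receptor over, and Ptges3 (p23) closes the mature complex. The immunophilins Fkbp5 and Fkbp4 then compete for Hsp90, Fkbp5 holding the receptor at low affinity for hormone and Fkbp4 linking it to transport into the nucleus. The same chaperones serve many other client proteins.

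RefSeq promoter windows (GRCm38.p6, 250 bases before to 50 after the start of transcription) were held for 5 of the 7 genes; Hsp90aa1 and Hsp90ab1 had none in the table. The table does not tie a window to the transcript that was counted. The 6 motifs were searched on both strands, and their background is the share of all 32851 windows with a match. They were the glucocorticoid response element, spelled AGAACA, any 3 bases, TGTTCT (0.00913% of windows), the heat shock element pair GAANNTTC or TTCNNGAA (15.1%), the C/EBP core TTGCNNAA or TTNNGCAA (10.8%), the CCAAT box as CCAAT or ATTGG (37.4%), the cAMP response element TGACGTCA (1.79%), and its short core TGACG or CGTCA (20.8%), which every full element contains. The 4 stretches below belong to the genes whose values are described most closely; capitals mark matches to the CCAAT box, the heat shock pair and the C/EBP core, and each stretch is written 5′ to 3′ on the gene's own strand, which is the minus strand for all 4.
Hsd11b1, chr1:193242361-193242610: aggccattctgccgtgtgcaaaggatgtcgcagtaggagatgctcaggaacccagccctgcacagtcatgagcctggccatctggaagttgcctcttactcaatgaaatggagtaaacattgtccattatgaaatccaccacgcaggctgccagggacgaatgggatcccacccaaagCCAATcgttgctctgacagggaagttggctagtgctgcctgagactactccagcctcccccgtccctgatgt
H6pd, chr4:150003215-150003486: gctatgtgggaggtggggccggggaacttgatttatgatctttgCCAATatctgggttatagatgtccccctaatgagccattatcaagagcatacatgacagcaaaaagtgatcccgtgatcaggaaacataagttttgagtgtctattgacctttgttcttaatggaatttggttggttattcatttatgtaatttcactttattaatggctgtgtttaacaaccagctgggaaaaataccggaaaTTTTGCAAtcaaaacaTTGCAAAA
Fkbp4, chr6:128438657-128438906: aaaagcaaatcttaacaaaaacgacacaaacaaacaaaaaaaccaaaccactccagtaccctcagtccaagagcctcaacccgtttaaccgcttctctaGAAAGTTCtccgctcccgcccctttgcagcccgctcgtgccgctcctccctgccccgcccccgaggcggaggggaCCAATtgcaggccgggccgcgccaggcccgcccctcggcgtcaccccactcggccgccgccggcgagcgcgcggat
Stip1, chr19:7040027-7040276: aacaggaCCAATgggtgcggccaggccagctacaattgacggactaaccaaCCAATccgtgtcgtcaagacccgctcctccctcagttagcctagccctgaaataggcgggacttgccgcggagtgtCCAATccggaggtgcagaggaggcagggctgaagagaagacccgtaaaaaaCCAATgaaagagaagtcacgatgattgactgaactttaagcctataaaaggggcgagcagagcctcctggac
Stip1 carried 4 CCAAT boxes, beginning 243, 199, 123 and 72 bases before the start, and 1.06% of all windows held 4 or more. Fkbp4 carried 1 heat shock pair, GAAAGTTC, beginning 151 bases before the start, and a CCAAT box 76 bases before it. H6pd carried 2 matches to the C/EBP core, 1 beginning 2 bases before the start and 1 at transcribed base 15, plus a CCAAT box 206 bases before the start. Hsd11b1 carried a CCAAT box 72 bases before the start and none of the other motifs searched. The short core of the cAMP response motif matched at 2 places in Stip1 (from 214 and 188 bases before the start), at 1 in Fkbp4 (38 before it) and at 1 in Ptges3 (transcribed base 12), which held no other match. None of the 5 windows held the glucocorticoid response element as spelled here. These are matches of letters, and binding to them was not examined.

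Hsd11b1 was close to undetected in preadipocytes and appeared with differentiation in both lines. Its RPKM was 0.221 in Vec D0, 0.246 in Cre D0, 0.424 in Vec 4h and 0.193 in Cre 4h, from 7, 8, 7 and 2 reads. It reached 3.45 in Vec D2 (95% interval 2.89 to 4.08) and 3.92 in Cre D2 (3.30 to 4.62), and then 8.32 in Vec D7 (7.11 to 9.66) and 4.75 in Cre D7 (4.04 to 5.55). Every D2 and D7 library stood above every D0 and 4h library, and the intervals of Cre D7 overlapped those of Cre D2 but not those of Vec D7. From D0 to D2 the ratio was 15.6 in Vec (7.36 to 39.5) and 15.9 in Cre (7.85 to 37.6). From D2 to D7 it was 2.41 in Vec (1.91 to 3.05) and 1.21 in Cre (0.959 to 1.53). Even at its highest Hsd11b1 stayed the least abundant of the 7 transcripts. The reads were counted on 2 RefSeq transcripts of the gene with nearly the same number, 51.5 and 48.5% of their sum, and the one with more reads was used. The 8 adipocyte markers moved the same way, from sums of at most 95.8 RPKM at D0 and 4h to at least 1758 at D2 and D7. Their part in the Hsd11b1 course was not tested, and in bulk RNA a change in the number of cells of a type and a change in RNA per cell cannot be told apart.

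H6pd was abundant from the start and its early course differed between the lines. It read 19.5 RPKM in Vec D0 and 22.0 in Cre D0, then 29.4 in Vec 4h (28.0 to 30.8) and 15.6 in Cre 4h (14.3 to 16.9). It read 28.4 in Vec D2, 21.6 in Cre D2, 29.7 in Vec D7 and 27.2 in Cre D7. In Vec the level at 4h, D2 and D7 was above that at D0, with overlapping intervals for 4h, D2 and D7, while in Cre it was lowest at 4h and highest at D7. The 4h value was 1.51 times the D0 value in Vec (1.42 to 1.61) and 0.708 times in Cre (0.645 to 0.776). G6pdx, the cytosolic counterpart of H6pd that starts the pentose phosphate pathway, read 34.5, 36.7, 35.4 and 33.6 RPKM in Vec D0, Cre D0, Vec 4h and Cre 4h. It read 78.3 in Vec D2, 55.8 in Cre D2, 74.5 in Vec D7 and 46.6 in Cre D7, so H6pd stood at 0.363 to 0.829 of the G6pdx level.

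Fkbp4 and Stip1 shared a course that peaked at D2 in both lines. Fkbp4 read 46.4, 47.9, 48.5 and 49.999 RPKM in Vec D0, Cre D0, Vec 4h and Cre 4h, with overlapping intervals. It then read 74.4 in Vec D2 (72.2 to 76.5) and 69.5 in Cre D2 (67.4 to 71.7), and fell to 41.4 in Vec D7 and 38.7 in Cre D7. The D2 level was 1.60 times D0 in Vec (1.53 to 1.69) and 1.45 times in Cre (1.38 to 1.53), and D7 was 0.557 of D2 in Vec and 0.556 in Cre. Stip1 read 74.6 in Vec D0, 73.8 in Cre D0, 73.5 in Vec 4h and 77.4 in Cre 4h, then 99.1 in Vec D2 and 88.0 in Cre D2, and 54.0 in Vec D7 and 57.6 in Cre D7. Its 2 highest libraries were those of D2 and its 2 lowest those of D7, as for Fkbp4.

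The 2 cytosolic Hsp90 genes differed in level far more than in course. Hsp90ab1, the constitutive form, read 604 RPKM in Vec D0, 570.1 in Cre D0, 473 in Vec 4h, 507 in Cre 4h, 565 in Vec D2 and 518 in Cre D2, and then 312 in Vec D7 and 355 in Cre D7. Hsp90aa1, the stress-inducible form, read 33.7, 35.3, 33.9, 35.3, 36.8 and 33.0 in the same order through D2, and 19.4 in Vec D7 and 25.0 in Cre D7. Both D7 libraries were the lowest for each gene. Per kilobase, Hsp90ab1 exceeded Hsp90aa1 by 14.0 to 17.9 times in every library. How reads that match both paralogs were placed is not stated in the labels or file headers, so the split between them is uncertain.

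Ptges3 (p23) had its higher levels at 4h and D2. It read 24.6 in Vec D0 and 20.9 in Cre D0, 27.9 in Vec 4h and 28.5 in Cre 4h, 32.6 in Vec D2 and 27.2 in Cre D2, and 20.2 in Vec D7 and 21.6 in Cre D7. The 4h and D2 libraries were above those of D0 and D7 in each line. The intervals of Vec 4h (25.8 to 30.1) and Vec D0 (23.2 to 26.1) overlapped. The ratio of 4h to D0 was 1.14 in Vec (1.03 to 1.25) and 1.36 in Cre (1.21 to 1.53), with counting error only.

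**Figure D1:**
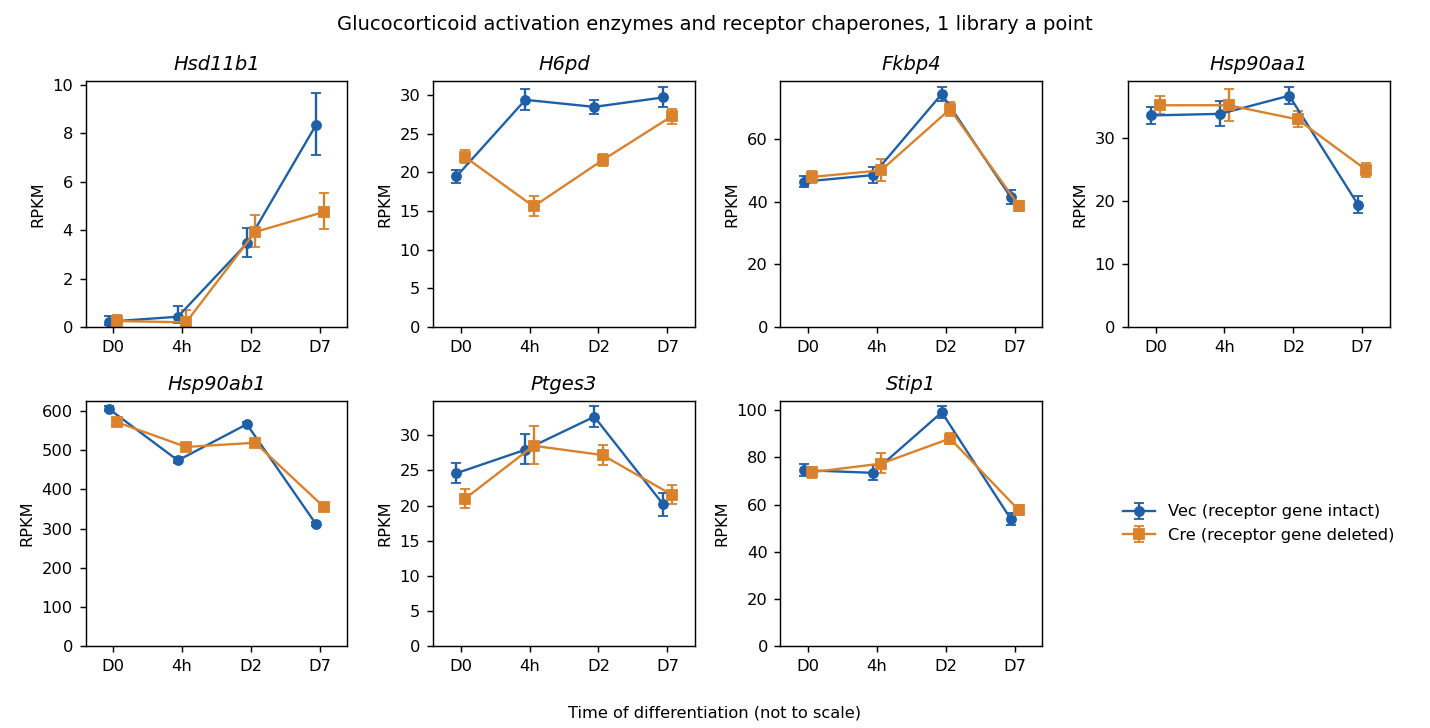
RPKM of each gene at 4 times in Vec (blue circles) and Cre (orange squares), 1 library a point, with 95% exact Poisson intervals for counting error; time is not to scale. Hsd11b1 rises from below 1 RPKM at D0 and 4h to 8.32 in Vec D7 and 4.75 in Cre D7, H6pd separates the lines at 4h (29.4 against 15.6), and Fkbp4 and Stip1 peak at D2.

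Time was tested across both lines with an additive model of line and time in edgeR (quasi-likelihood, Benjamini-Hochberg adjustment over 12581 genes, threshold 0.05). Its error is the departure of the lines from parallel courses, so its p-values do not measure the spread between cultures. The 4h, D2 and D7 comparisons share the D0 libraries. As a check each library was left out in turn, and leaving out a library of a compared time left 1 library there. Such a loss also lowered the number of calls over all genes tested, except that of Cre D7 for D7 against D0. All 7 genes passed the filter on low values, Hsd11b1 only through the D2 and D7 libraries in which it was high, so that its call had to follow and is given as a description.

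At 4 hours of induction none of the 7 genes passed, while 25.3% of all genes tested did. The nearest was Ptges3, with a fitted log2 change of 0.41 (SE 0.12, adjusted p = 0.051); it passed without Vec D7 (adjusted p = 0.0474) or without Cre D7 (0.0451). The fitted value was 0.16 for Fkbp4 (SE 0.11, adjusted p = 0.301), 0.12 for Stip1 (SE 0.11, adjusted p = 0.428), 0.11 for Hsp90aa1 and -0.16 for Hsp90ab1. H6pd had a fitted change of 0.17 with an SE of 0.28, the largest SE of the genes above 1 RPKM in all libraries, and its level moved in opposite directions in Vec and Cre. The median over the 7 genes was 0.16, against 0.00116 over all genes tested.

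At D2, 2 of the 5 receptor chaperones were higher than at D0 and none lower, and H6pd was not called. Beside them 38.6% of all genes tested were called, 17.9% higher and 20.7% lower. Fkbp4 rose by a log2 change of 0.59 (SE 0.11, adjusted p = 0.0109), and Ptges3 by 0.37 (SE 0.12, adjusted p = 0.0491). As a description outside that count, Hsd11b1 was higher by 3.95 (SE 0.43), and by 3.99 when no filter was applied. The Fkbp4 call was lost without Vec D0 (adjusted p = 0.112), Vec D2 (0.0646) or Cre D2 (0.0532). Ptges3 lost its call under each of the 8 other settings of scaling, filter, tool and transcript choice, and without any 1 of the D0, 4h or D2 libraries. The other fitted values were 0.31 for Stip1 (SE 0.11, adjusted p = 0.0649), 0.22 for H6pd, -0.14 for Hsp90ab1 and 0.000535 for Hsp90aa1 (SE 0.14), a value whose sign depends on the scaling.

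By D7 Hsp90ab1 was lower than at D0, with a log2 change of -0.73 (SE 0.14, adjusted p = 0.0395). Beside it 8.15% of all genes tested were called, 2.66% lower and 5.48% higher. Again as a description, Hsd11b1 was higher by 4.82 (SE 0.43). The Hsp90ab1 call was lost without any 1 of the 8 libraries (adjusted p from 0.0512 to 0.328) and with at least 5 RPKM required (0.0509), with the direction kept each time. The Hsd11b1 change fell short of the threshold without Vec D0 or Cre D0. Hsp90aa1 stood at -0.55 (SE 0.14, adjusted p = 0.0648), and it passed with DESeq2 (0.0200), with library totals alone (0.0492), with limma on log2(RPKM + 1) (0.0475) and without Cre D7 (0.0434). The remaining values were -0.33 for Stip1 (adjusted p = 0.111), -0.15 for Fkbp4, -0.03 for Ptges3 and 0.52 for H6pd (SE 0.28, adjusted p = 0.256).

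Between D2 and D7 4 of the 5 receptor chaperones fell and none rose, beside 24.3% of all genes tested called, 9.65% lower and 14.7% higher. This comparison was added after the values were seen. Fkbp4 fell by 0.74 on the log2 scale (SE 0.11, adjusted p = 0.00997), Stip1 by 0.64 (SE 0.11, adjusted p = 0.0136), Hsp90ab1 by 0.60 (SE 0.14, adjusted p = 0.0317) and Hsp90aa1 by 0.55 (SE 0.14, adjusted p = 0.0366). Ptges3 stood at -0.41 (SE 0.12, adjusted p = 0.0529). The median of the 5 was -0.60, against 0.02 over all genes. Neither enzyme was called: Hsd11b1 stood at 0.88 (SE 0.32, adjusted p = 0.101) and H6pd at 0.30 (SE 0.27, adjusted p = 0.45). Without Vec D2 none of the 5 chaperones was called, and without Vec D7 only Fkbp4 was; Hsp90ab1 lost its call without any 1 library, Hsp90aa1 without any but Cre D7, and the direction of all 4 was kept.

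**Figure D2:**
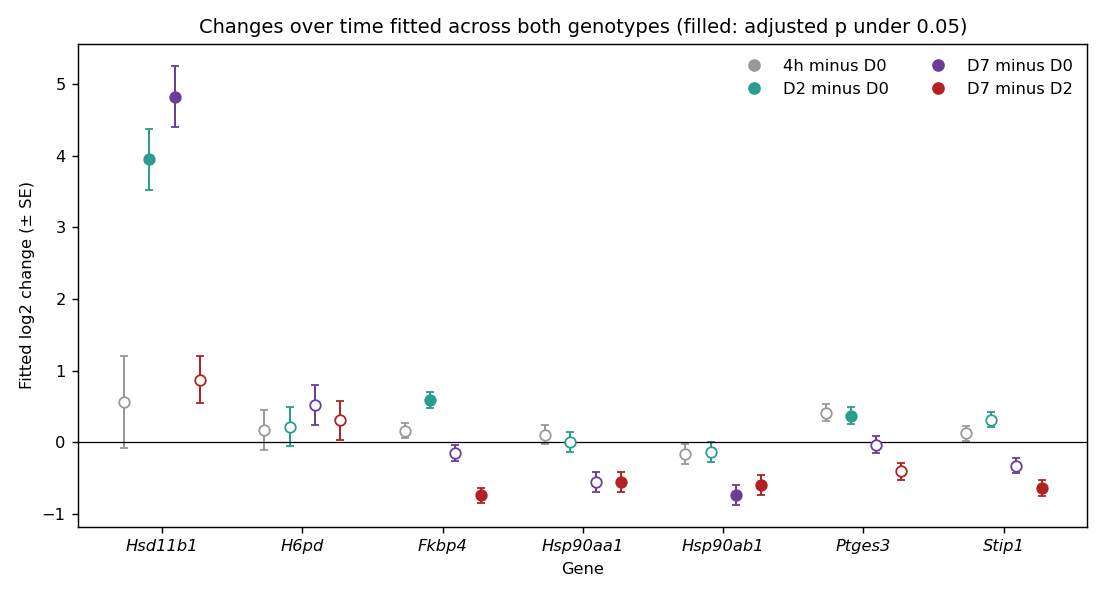
Fitted log2 change (y axis, ± SE) of each gene for 4 comparisons of times across both lines, with filled points at an adjusted p under 0.05. Hsd11b1, shown as a description, stands at 3.95 for D2 and 4.82 for D7 against D0. The red points for D7 against D2 lie between -0.41 and -0.74 for the 5 chaperones.

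Between Cre and Vec at a given time none of the 7 genes passed the rule used for single libraries, a difference of at least 1 in log2(RPKM + 1) with 1 RPKM reached in at least 1 of the 2 libraries. By that rule 0 of 6 genes differed at D0, 0 of 6 at 4h, 0 of 7 at D2 and 0 of 7 at D7, beside 0.433, 4.24, 4.09 and 4.50% of all genes compared. With 1 library a side there is no test of these differences. Fkbp4 differed least: the Cre to Vec ratio was 1.03 at D0 (0.975 to 1.09), 1.03 at 4h (0.944 to 1.13), 0.935 at D2 (0.896 to 0.976) and 0.933 at D7 (0.871 to 0.999). Stip1 lay between 0.888 and 1.07, Hsp90ab1 between 0.917 and 1.14, and Ptges3 between 0.833 and 1.07. Hsp90aa1 lay between 0.898 and 1.05 until D2, and at D7 it was 1.29 times as high in Cre (1.18 to 1.40). At 4h each of the 5 chaperones had a Cre to Vec ratio above 1. After scaling by median of ratios their differences on the scale of the rule lay between -0.02 and -0.09. Their direction at 4h therefore depends on the scaling.

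The widest gap among the 7 genes with more than 10 reads on each side was that of H6pd at 4h, where Vec exceeded Cre 1.88-fold (1.71 to 2.08). On the scale of the rule it was -0.87, and 3.30% of the genes compared were as low or lower. Scaling by median of ratios, which moved the Cre minus Vec difference of all genes at 4h by -0.12, brought it to -0.99. Cre 4h was the shallowest library, with 569 reads of H6pd against 1706 in Vec 4h. At D2 Vec exceeded Cre 1.32-fold (1.26 to 1.39), and at D7 1.09-fold (1.03 to 1.15); at D0 Cre was 1.13 times Vec (1.07 to 1.20).

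Hsd11b1 did not differ between the lines beyond counting error at D0, 4h and D2, with Cre to Vec ratios of 1.11 (0.353 to 3.61), 0.455 (0.0461 to 2.39) and 1.14 (0.891 to 1.45). At D7 Vec exceeded Cre 1.75-fold (1.40 to 2.19), a difference of -0.70 on the scale of the rule, with 6.81% of genes as low or lower. At D7 the adipocyte markers differed in the same direction, with all 8 lower in Cre than in Vec. Their summed level was 4856 RPKM in Vec D7 and 1758 in Cre D7, against 2469 in Vec D2 and 2186 in Cre D2. Elsewhere they did not follow Hsd11b1. At D2 6 of the 8 were lower in Cre, where Hsd11b1 was not. In Cre their sum fell from D2 to D7, while Hsd11b1 did not fall. Of the 6 preadipocyte and fibroblast markers 5 were higher in Cre D7, with sums of 2062 against 1185 RPKM. Their part in the difference at D7 was not tested.

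Averaged over all 4 times, the additive model called 0 of the 12581 genes different between the lines by edgeR, Nr3c1 included, so 0 of the 7 (1484 genes at an unadjusted p under 0.05, and 19 with DESeq2 at an adjusted p under 0.05). The fitted Cre minus Vec values were -0.34 for H6pd (SE 0.20), -0.32 for Hsd11b1 (SE 0.29), -0.13 for Ptges3 (SE 0.08), -0.06 for Fkbp4 (SE 0.08), -0.04 for Stip1 (SE 0.08), -0.02 for Hsp90ab1 (SE 0.10, above 0 with library totals alone) and 0.05 for Hsp90aa1 (SE 0.10).

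**Figure D3:**
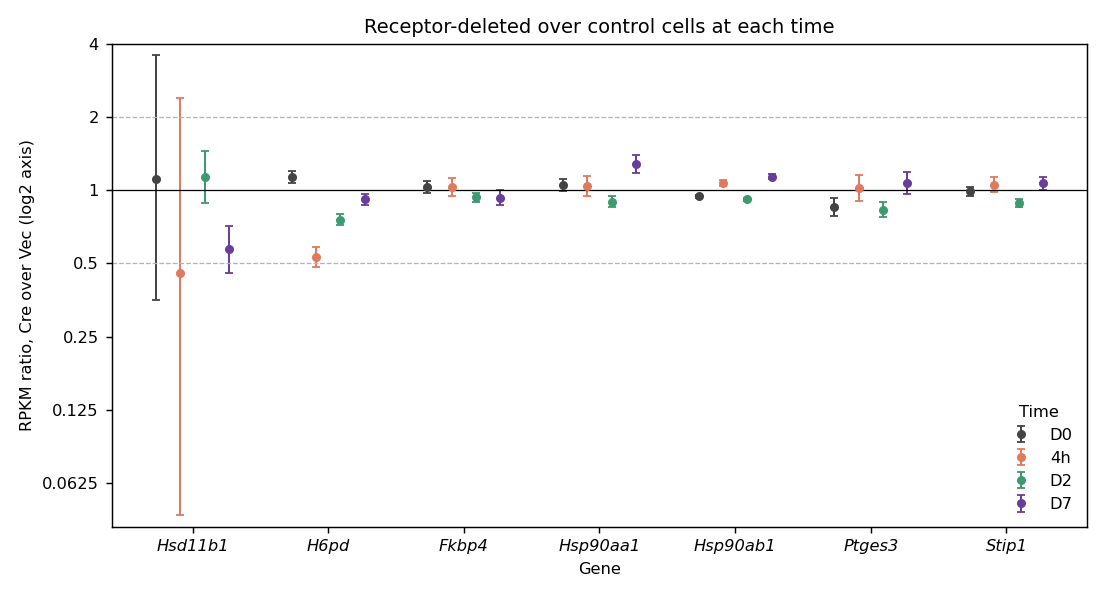
Ratio of RPKM in Cre to Vec (log2 axis) for each gene at D0, 4h, D2 and D7, with 95% Clopper-Pearson intervals for counting error; dashed lines mark ratios of 0.5 and 2. The 5 chaperones lie between 0.833 and 1.29 at every time, H6pd reaches 0.531 at 4h and Hsd11b1 0.571 at D7.

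The counterparts that oppose Hsd11b1 and Fkbp4 had courses of their own. Hsd11b2, the enzyme that inactivates glucocorticoid, read 0.368 RPKM in Vec D0, 0.673 in Cre D0, 0 in Vec 4h (no reads, upper 95% limit 0.163) and 0.140 in Cre 4h. It then read 7.01 in Vec D2 and 0.612 in Cre D2, and 0.356 in Vec D7 and 0.460 in Cre D7. Only Vec D2 stood above 1 RPKM, so the gene was left out of the model; Vec exceeded Cre there 11.5-fold (7.89 to 17.2, 374 against 30 reads), past the rule of size at -2.31. The ratio of Hsd11b1 to Hsd11b2 was thus 0.492 in Vec D2 (0.401 to 0.601) and 6.41 in Cre D2 (4.29 to 9.85). At D7 it was 23.3 in Vec (12.4 to 49.5) and 10.3 in Cre (6.53 to 17.15). These D7 intervals overlapped, with 10 and 21 reads of Hsd11b2. The ratios use 1 of the 2 Hsd11b1 transcripts, which held 51.5% of their summed reads, so their size depends on that choice. Fkbp5, a classical glucocorticoid-induced gene, read 20.2 in Vec D0, 242 in Vec 4h, 127 in Vec D2 and 15.0 in Vec D7, and 19.5, 26.99, 15.4 and 14.3 in Cre. Per kilobase Fkbp5 stood at 0.436 of Fkbp4 in Vec D0, at 4.996 times in Vec 4h, at 1.71 times in Vec D2 and at 0.362 in Vec D7. In Cre it stayed below Fkbp4 at all times, from 0.221 at D2 to 0.540 at 4h. The shifts in this ratio at 4h came with Fkbp4 levels of 48.5 in Vec and 49.999 in Cre.

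**Figure D4:**
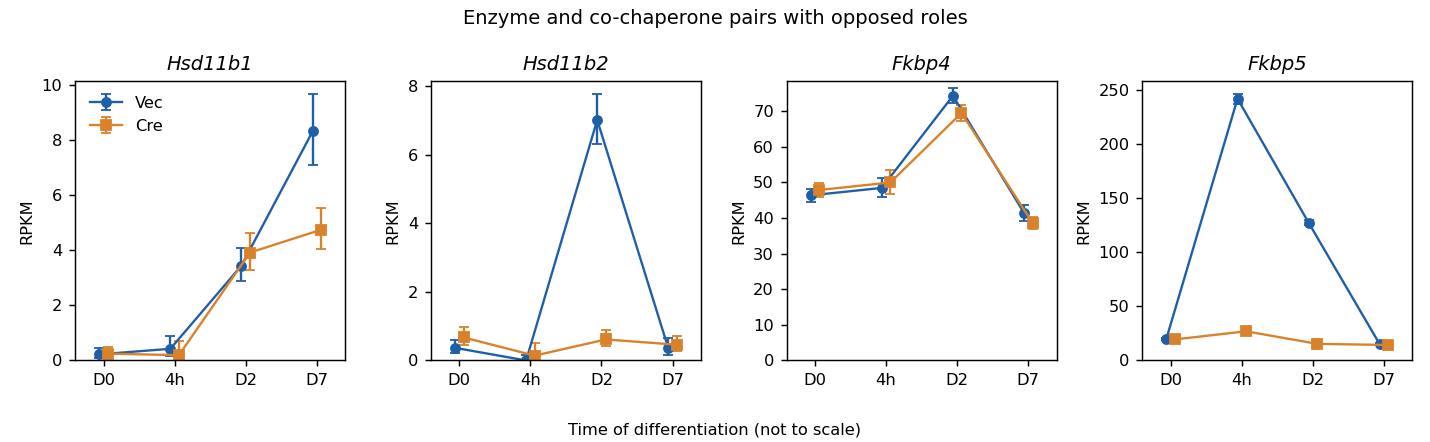
RPKM over time of the activating and inactivating enzymes (Hsd11b1, Hsd11b2) and of the immunophilins Fkbp4 and Fkbp5 in Vec (blue) and Cre (orange), 1 library a point with 95% exact Poisson intervals. Hsd11b2 reaches 7.01 in Vec D2 alone and Fkbp5 242 in Vec 4h, while the lines stay close for Fkbp4.

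The surrounding genes were taken from 5 lists of the same pathways. Among 11 tested genes of steroid and NADPH supply, 2 rose and 2 fell at D2, a share near the 38.6% of all genes called. G6pdx rose by 0.86 (SE 0.20, adjusted p = 0.0222) and Pgls, the next enzyme of the pentose phosphate pathway, by 0.81 (SE 0.18, adjusted p = 0.0188). Akr1c14, a hydroxysteroid dehydrogenase, fell by 2.63 (SE 0.23) and rose again by 2.67 from D2 to D7 (SE 0.23, adjusted p = 0.00474). Both rises at D2 were lost without Vec D0, Vec D2 or Cre D2, and both Akr1c14 calls held without any 1 library. At 4h 3 of the 11 fell, Idh1, Akr1c14 and Srd5a3, and none rose. Beside them 13.0% of all genes were called lower and 12.3% higher. These 3 calls were lost without any 1 of the D0 or 4h libraries. The list's median at D2 was 0.49, against 0.02 over all genes.

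Of 22 other Hsp90 co-chaperones and receptor partners, 6 fell and none rose from D2 to D7, beside 9.65% of all genes called lower, with a list median of -0.16. They were Ppid (a cyclophilin, another Hsp90-bound immunophilin) at -1.27 (SE 0.22), Chordc1 at -0.94 (SE 0.14), Ahsa1 (which stimulates the Hsp90 ATPase) at -0.87 (SE 0.14), Cacybp at -0.69 (SE 0.15), Ppp5c (a phosphatase of the receptor complex) at -0.57 (SE 0.14) and Ahsa2 at -0.45 (SE 0.10). None was called without Vec D2, and 1 without Vec D7. At D2 3 of the 22 had risen, Ppid, Ahsa1 and Chordc1, by 1.03, 0.82 and 0.64, and 3 had fallen, Fnip2, Fnip1 and St13. Beside them 17.9% of all genes were called higher and 20.7% lower. These D2 calls were all lost without Vec D0 or without Vec D2. Ppid read 37.0 RPKM in Vec D2 and 23.8 in Cre D2, from 14.5 and 14.4 at D0. At 4h 1 of the 22 rose and 3 fell, beside 25.3% of all genes called, and none was called without Vec D0 or Vec 4h. At D7 against D0 2 fell, beside 2.66% of all genes called lower, and neither call held without any 1 of the D0 or D2 libraries or Vec D7. By size, Fkbp5 was the one gene of the 22 that differed between the lines, at 4h and D2.

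The Hsp70 system hands the receptor to Hsp90, and its genes had calls already at 4h. A list of 18 genes held the cytosolic Hsp70, Hsp40 and Hsp110 chaperones. It also held small heat shock proteins (Hspb1, Hspb8 and Cryab) and the heat shock factors Hsf1 and Hsf2, none of them called by the model at 4h. By size, 1 of the 17 genes compared at 4h differed between the lines, beside 4.24% of all genes compared. That gene was Hspb1, at 11.8 RPKM in Vec 4h and 5.17 in Cre 4h, from 5.47 and 5.84 at D0. At 4h 7 of the 18 rose and 3 fell, beside 12.3% of all genes called higher and 13.0% lower. Hsph1 (Hsp110, a nucleotide exchange factor of Hsp70) rose by 2.35 (SE 0.31, adjusted p = 0.00952) and Bag3, another such factor, by 2.26 (SE 0.24, adjusted p = 0.00713). Hsph1 read 27.7 and 26.9 RPKM in Vec and Cre at D0, and 163 and 98.3 at 4h. Hspa8, the constitutive Hsp70, rose by 0.71 (SE 0.12). The inducible Hsp70 genes Hspa1a and Hspa1b fell by 1.97 (SE 0.47) and 1.67 (SE 0.18). Reads shared by these near-identical copies make their separate values uncertain. Hspa1a passed the filter on low values only through the D0 and D7 libraries, in which it was high. Its fall at 4h and its rise from D2 to D7 are therefore a description, though the counts of the 18 include it. Without Vec D0 the 10 calls were lost, and fewer of the 18 were called without Cre D0, Vec 4h or Cre 4h. Calls over all genes tested were fewer in each of these fits too. From D2 to D7 4 of the 18 rose and 6 fell, beside 14.7% of all genes called higher and 9.65% lower. Hspb1 and Cryab were among those that rose, and Hsf1 and Hsf2 among those that fell. Fewer of the 18 were called without any 1 of the D0, D2 or D7 libraries, most of all without Vec D2. Cryab, a small heat shock protein, rose by 4.54 (SE 0.26) after a fall of 4.06 at D2 (SE 0.26), and both Cryab calls held without any 1 library.

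Of 16 chaperones of other compartments, 5 rose at 4h and none fell, beside 12.3% of all genes called higher, led by the endoplasmic reticulum genes Dnajb9 (1.48, SE 0.19) and Hspa5 (1.31, SE 0.15); none was called without Vec D0 or Vec 4h, and 1 without Cre D0. At D2 7 rose and none fell, beside 17.9% of all genes called higher. They were led by the mitochondrial chaperonins Hspd1 (2.16, SE 0.19, adjusted p = 0.0029) and Hspe1 (1.90, SE 0.18), each of which held without any 1 library. The list of 16 also holds Ddit3, a stress transcription factor rather than a chaperone, which was among the 7. From D2 to D7 4 of the 16 fell and none rose, beside 9.65% of all genes called lower, and Hspd1 (-1.98, SE 0.19) and Hspe1 (-2.03, SE 0.18) again held without any 1 library; 2 to 5 were called when 1 library was left out. Trap1, the mitochondrial Hsp90, rose by 1.07 (SE 0.21, adjusted p = 0.0139), lost without Vec D0 or Vec D2. It read 22.9 and 25.8 RPKM at D0 and 63.1 and 43.2 at D2 in Vec and Cre. Hsp90b1, the Hsp90 of the endoplasmic reticulum, was not called at any time and read 269 to 390 RPKM.

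The chaperonin TRiC folds actin and tubulin with prefoldin as its partner. Of 14 TRiC and prefoldin genes 4 rose and none fell at 4h (Cct6a, Pfdn2, Pfdn5 and Pfdn6), beside 12.3% of all genes called higher. These 4h calls were lost without any 1 of the D0 or 4h libraries. At D2 5 of the 14 rose and none fell (Cct2, Cct3, Cct6a, Pfdn2 and Pfdn6), beside 17.9% of all genes called higher. From D2 to D7 10 fell and none rose, beside 9.65% of all genes called lower, with a median of -0.66 against 0.02 over all genes. The fall was largest for Cct2, at -1.15 (SE 0.14, adjusted p = 0.00757), the single gene of the 10 still called without Vec D2 or without Vec D7. None of the 5 rises at D2 was called without Vec D0 or without Vec D2.

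**Figure D5:**
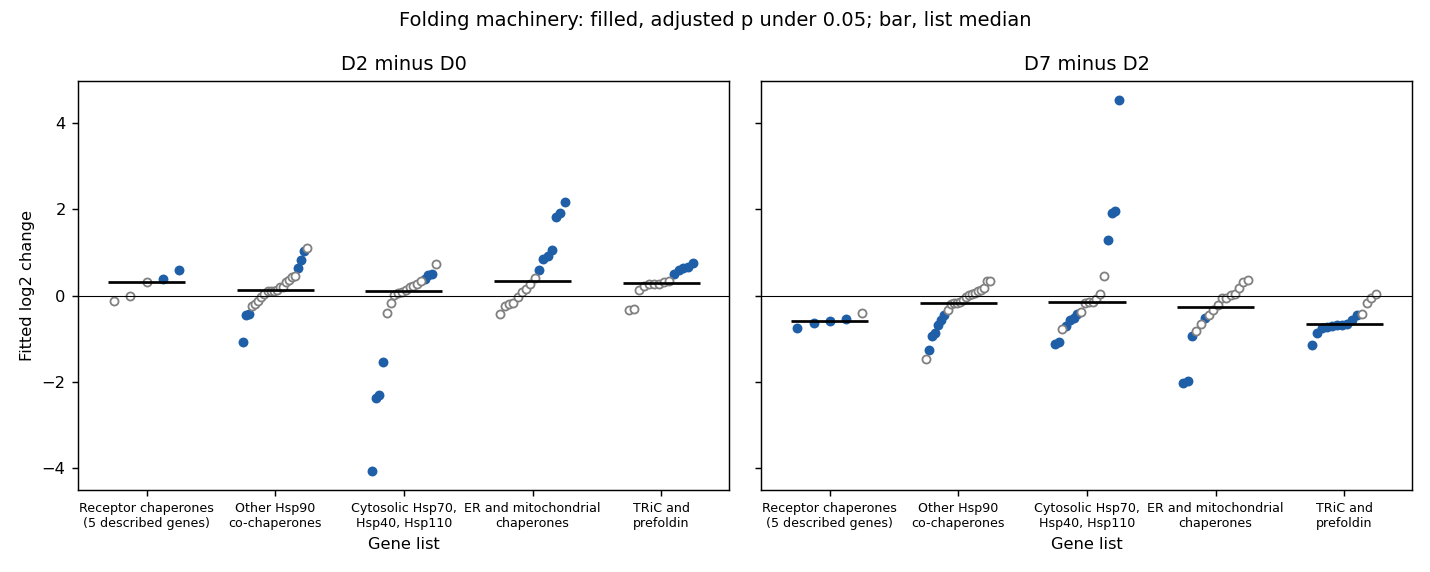
Fitted log2 change of each tested gene in 5 lists of folding machinery for D2 against D0 (left) and D7 against D2 (right); filled points have an adjusted p under 0.05 and bars mark list medians. From D2 to D7 the medians are -0.60 for the 5 receptor chaperones, -0.16 for the other co-chaperones and -0.66 for TRiC and prefoldin.

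The genes closest in pattern to each of the 7 were ranked by Pearson correlation of log2(RPKM + 1) over the 8 libraries, as a description. The 8 libraries are 4 times in 2 lines, so any gene with a like course over time reaches a high value. Hsd11b1 was closest to Plin1 (a lipid droplet coat protein, r = 0.994), Lgals12 (0.994) and Fam13a (0.991). H6pd had weaker matches, Tns1 (0.940), Rasa3 (0.929) and Il6ra (0.927). Fkbp4 was closest to Rpap2 (0.988), Stip1 to Rack1 (0.989), Cdk9 (0.988) and the TRiC subunit Cct7 (0.986), Hsp90aa1 to Gnl3l (0.994), Hsp90ab1 to Cdca2 (0.991) and Ptges3 to Rtcb (0.983).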

How the data were processed

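For each of the 8 RNA libraries the authors deposited a table of read counts and RPKM per RefSeq transcript, per the file headers. The submitters' processing notes name CASAVA 1.8.2, SICER and mm9; the aligner and counter of the RNA reads are not named in the labels or headers. The 22 ChIP samples were not analysed here. Library totals were recovered from the ratio of deposited count to RPKM. Of 29082 transcripts 97.8% matched a symbol in a RefSeq table of GRCm38.p6, and each gene was represented by its transcript with the highest summed read count. The 7 genes, the 6 lists and the markers were chosen with earlier results of these data known, 1 of the lists is not reported here, and the D7 against D2 comparison was added after the values were seen. Named genes are the 7, Nr3c1, their paralogs, at most 6 called genes per list and comparison with the largest change, and the 3 genes of closest pattern.

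Counts of 12581 genes with at least 1 RPKM in at least 2 libraries were fitted in edgeR 4.0.16 (R 4.3.3; glmQLFit, TMM) with terms for line and time, leaving 3 residual degrees of freedom; the common biological coefficient of variation was 0.176. The script was tested on simulated data. SE is the log2 change divided by the square root of the F statistic. Cre and Vec were compared at each time by size on log2(RPKM + 1). DESeq2 1.42.0, limma 3.58.1, other scalings, filters and pseudocounts, summed transcripts, and leaving out each library were the alternatives. Ratios and intervals used scipy 1.17.1 in Python 3.11.15.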

Additional observations from a re-analysis of the deposited data

Results flagged for a closer look

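H6pd responded to 4 hours of induction in opposite directions in the single libraries of the 2 lines: the log2 ratio of 4h to D0 in Cre minus that in Vec was -1.09, with a ratio of 1.51 in Vec and 0.708 in Cre. Hsp90aa1 did so from D0 to D2, with a difference of -0.22 and ratios of 1.09 in Vec (1.03 to 1.16) and 0.936 in Cre (0.885 to 0.991). Neither difference was tested, since each line and time holds 1 library.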

How the results depend on the processing

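The settings varied were scaling, filter, tool, pseudocount and transcript choice. Of 275 combinations of a gene of the 7, a tested comparison and a setting, 254 kept direction and side of the threshold. With 1 library left out, 220 of 280 did so. For Cre against Vec at a time the measure was another: 151 of 155 values moved by no more than the counting error of the log2 ratio. Counts of the 7 in this section include Hsd11b1, whose calls at D2 and D7 are a description. With at least 5 RPKM required, the number of the 7 called was 1 at D2 and 0 at D7 against D0. Hsd11b1 is then not tested, and Ptges3 at D2 and Hsp90ab1 at D7 lose their calls. Leaving out 1 library gave 0 to 1 called at 4h, 1 to 3 at D2, 0 to 2 at D7 and 0 to 3 for D7 against D2. Hsp90aa1 at D2 was -0.0133 with median-of-ratios scaling and with DESeq2 and -0.0282 with at least 5 RPKM. Hsp90ab1, Cre minus Vec over all times, was 0.0189 with library totals alone and with limma on log2(RPKM + 1), and 0.0185 on log2(RPKM + 5). Leaving out 1 library changed the sign of values near 0: H6pd ran from -0.32 to 0.60 at 4h and from -0.10 to 0.59 at D2, Hsd11b1 from -0.11 to 0.87 at 4h, Hsp90aa1 from -0.11 to 0.10 at D2 and Ptges3 from -0.15 to 0.10 at D7 against D0. Cre minus Vec over all times ran from -0.70 to 0.0417 for Hsd11b1, from -0.0671 to 0.00955 for Hsp90ab1 and from -0.0412 to 0.10 for Hsp90aa1.

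Over all genes, D7 against D0 gave 556 calls with at least 5 RPKM and 2103 with DESeq2 (1025 with the settings of the report, and 950 to 1417 with the other 6), and Cre against Vec over all times 19 with DESeq2 and 1 with no filter (0 with the other settings). The rule of size gave 89, 811, 847 and 1010 genes at D0, 4h, D2 and D7 on log2(RPKM + 0.1) and 4, 195, 164 and 209 on log2(RPKM + 5), against 52, 504, 487 and 562; at D0 it gave 11 with at least 5 RPKM. Without 1 library, all-gene calls ran from 0 to 3085 at 4h, 981 to 4905 at D2, 0 to 1382 at D7 against D0 and 525 to 2700 for D7 against D2. The cause of these changes was not tested. At 7.7 M reads Cre 4h gave Hsd11b1 2 reads, and the ratio of 4h to D0 in Cre was 0.782 (0.0809 to 3.92), so a change within that interval was not detectable at this depth. No paired analysis was possible because each line and time holds 1 library, which leaves no replicate numbers to match; the additive model itself sets the lines against each other within each time.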
